A study of Mus musculus with 2 samples.

Results

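The genes described here are 34 genes of DNA replication and S phase, a list drawn up by function, from the start of S phase to the supply of DNA precursors. This list, and those compared with it, were chosen with earlier results of these data known. Each was read through the probe set that names that gene alone, taking the one with the highest mean of both arrays where there was more than 1. All 34 had such a probe set, out of 19938 named genes on the array. All 34 were measured, out of 13554 genes, and lay above the detection floor on both arrays. The floor was a log2 signal of 5.11, the 95th percentile of the brighter value over 1210 probe sets of odorant and pheromone receptor genes, which muscle is not thought to express.

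C2C12 is a mouse myoblast line that stops dividing and fuses into myotubes when serum is withdrawn. Cells were held in 2% horse serum for 7 days and then given virus for 48 h, at 30 infectious particles per cell. The control group received Ad-DsRed, an adenovirus carrying a red fluorescent protein, and the other group received Ad-caERα, which carries a constitutively active estrogen receptor α. Each group had 1 array, so both groups share the line, the differentiation and an adenoviral infection, and they differ in the gene carried. The labels name neither the promoter driving that gene nor the portion of the receptor used, and say nothing of pooled dishes.

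Before a cell copies its DNA, the origin recognition complex marks origins in G1, and Cdc6 and Cdt1 load the MCM helicase ring onto them, a step called licensing. At the start of S phase, cyclin E with Cdk2 and the E2F transcription factors drive the cell across the G1/S boundary, and Cdc45 and GINS join the MCM ring to make the running helicase. Myogenic differentiation takes cells out of the cycle and lowers the E2F-driven replication genes, while C2C12 cultures keep some unfused mononucleated cells beside the myotubes. In RNA from a whole culture, fewer cells making a transcript and less of it per cell cannot be told apart.

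With 1 array per group, no test, standard error or replicate check can be given, and each difference below is the log2 signal of Ad-caERα minus that of Ad-DsRed. As a yardstick of spread, the log2 differences of probe sets naming 1 and the same gene varied with an SD of 0.13 (770 genes). Those of 29 ribosomal protein genes had an SD of 0.13 as well. Over all measured genes the SD was 0.27, and over the 34 genes it was 0.16. None of these SDs measures the spread between cultures or arrays. The gene for the introduced receptor served as the check of the labels: Esr1 had a log2 signal of 7.38 with Ad-DsRed and 8.44 with Ad-caERα, 2.08-fold higher in the array so labelled. Which of the endogenous and introduced transcripts the probe set reads is unknown.

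Replication transcripts were mostly lower in the Ad-caERα array, each by a small amount. The difference was below 0 for 29 of the 34 genes, against 48.8% of all measured genes, and their median difference was -0.16, against 0.0017 over all measured genes. Taking 1.2-fold as the size that counts, a log2 difference of 0.26, 10 of the 34 genes were lower, against 10.4% of all measured genes, and 0 were higher, against 11.1%. At 2-fold 0 of the 34 passed in either direction, against 0.686%. The 10 lower genes were Pola1, Rrm2, Gins1, Orc1, Mcm3, Ccne2, Pole, Cdc45, Rrm1 and Rfc3, and they came from 6 of the 7 steps described below. The count depends on the size chosen, since 19 of 34 were lower by at least 1.1-fold (24.3% of all measured genes) and 1 by at least 1.3-fold (4.34%).

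**Figure D1:**
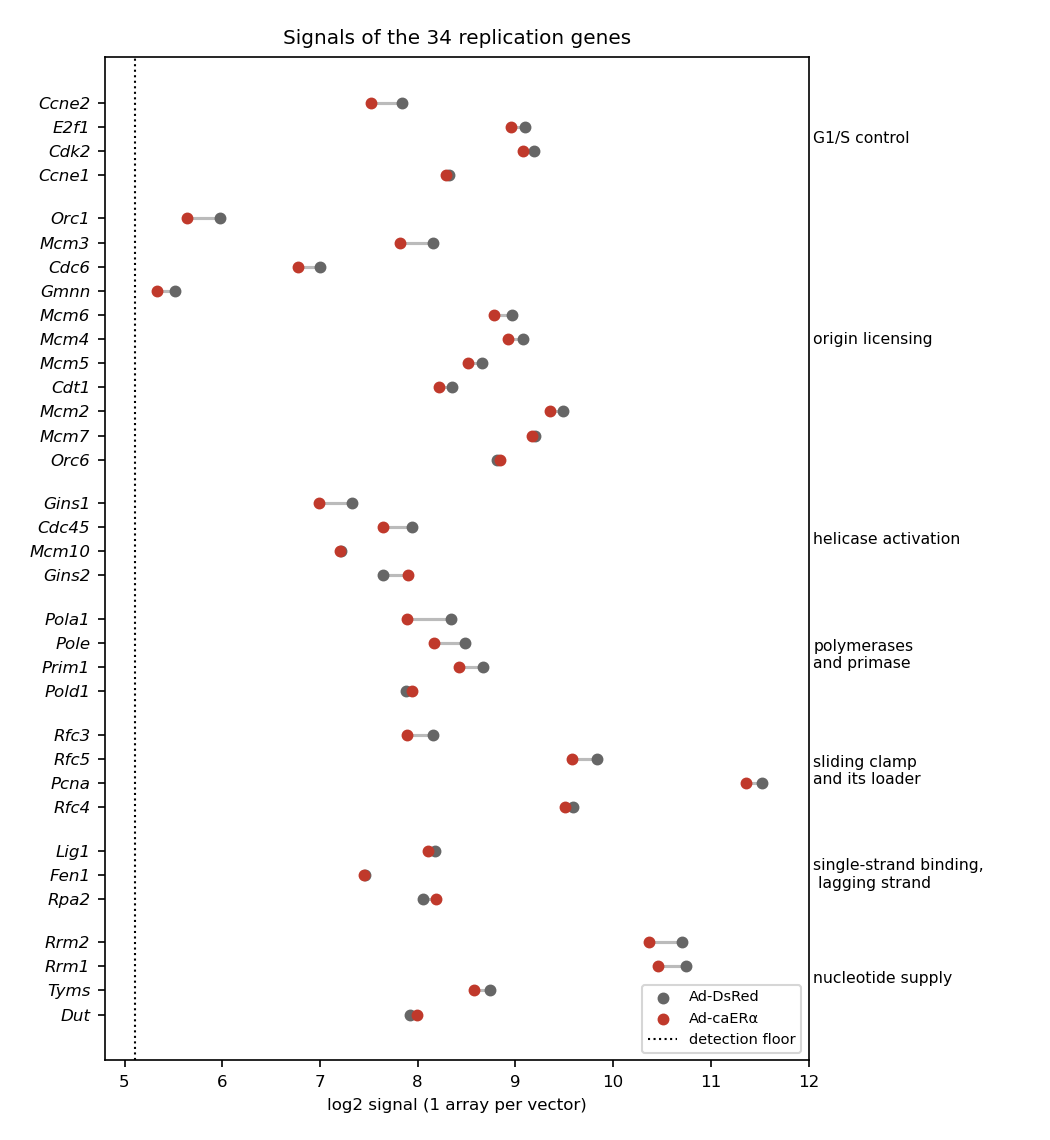
Log2 signal (horizontal axis) of each of the 34 genes on the 1 Ad-DsRed array (grey) and the 1 Ad-caERα array (red), grouped by step of replication, with the detection floor of 5.11 dotted. The red point lies to the left of the grey one in 29 genes; levels of different genes come from different probes and cannot be ranked.

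The promoters of 28 of the 34 genes were in RefSeq's table for GRCm38.p6, and 4 are shown because they belong to the 3 lowest genes with an entry and to the highest with one. They run from 250 bases before to 50 after the start, on the gene's strand. Capitals mark an E2F site (TTTCCCGC, TTTCGCGC, TTTGCCGC or TTTGGCGC) or a CCAAT box, on either strand, so that ATTGG is a CCAAT box read backwards and GCGCCAAA and GCGCGAAA are E2F sites read backwards.
Pola1 (chrX:93632106-93632405, minus strand): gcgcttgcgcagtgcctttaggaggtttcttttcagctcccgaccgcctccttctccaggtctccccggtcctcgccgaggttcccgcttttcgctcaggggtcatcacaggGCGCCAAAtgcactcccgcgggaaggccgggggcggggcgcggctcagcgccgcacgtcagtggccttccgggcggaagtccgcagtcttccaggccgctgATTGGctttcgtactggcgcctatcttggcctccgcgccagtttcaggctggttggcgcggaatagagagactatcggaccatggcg
Rrm2 (chr12:24708004-24708303, plus strand): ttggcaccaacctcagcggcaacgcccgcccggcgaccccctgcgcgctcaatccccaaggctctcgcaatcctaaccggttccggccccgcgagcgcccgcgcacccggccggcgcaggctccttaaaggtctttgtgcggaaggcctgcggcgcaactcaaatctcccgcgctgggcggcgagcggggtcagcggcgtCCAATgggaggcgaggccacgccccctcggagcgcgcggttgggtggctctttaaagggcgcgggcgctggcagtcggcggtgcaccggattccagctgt
Orc1 (chr4:108579204-108579503, plus strand): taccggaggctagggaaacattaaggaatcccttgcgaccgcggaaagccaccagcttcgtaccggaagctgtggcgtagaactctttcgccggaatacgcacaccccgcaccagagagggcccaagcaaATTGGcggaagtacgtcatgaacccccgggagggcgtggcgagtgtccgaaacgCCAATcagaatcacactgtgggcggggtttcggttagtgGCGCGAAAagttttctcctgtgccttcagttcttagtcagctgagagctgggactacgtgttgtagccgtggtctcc
Rpa2 (chr4:132768110-132768409, plus strand): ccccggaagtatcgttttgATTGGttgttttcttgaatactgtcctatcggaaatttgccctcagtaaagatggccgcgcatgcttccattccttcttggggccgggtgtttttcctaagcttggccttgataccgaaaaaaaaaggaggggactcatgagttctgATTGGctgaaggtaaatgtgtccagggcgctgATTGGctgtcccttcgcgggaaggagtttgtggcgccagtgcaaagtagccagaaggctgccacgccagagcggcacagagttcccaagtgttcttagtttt
The Pola1 promoter held 1 E2F site, beginning at position -138 counted from the start, and a CCAAT box. The Orc1 promoter held 1 E2F site, beginning at position -27, between the start and 2 CCAAT boxes. Rrm2 held a CCAAT box and no E2F site of these letters, and Rpa2 held 3 CCAAT boxes and no such E2F site.

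E2F sites of these letters stood in the promoters of 12 of the 28 genes, namely Cdc6, Cdk2, Cdt1, Lig1, Mcm3, Mcm5, Mcm6, Mcm7, Orc1, Pola1, Pold1 and Rfc3. By promoter (some genes have several) that is 12 of 32, or 37.5%, against 2.26% of all 32851 promoters in the table, which include those of genes of other kinds. A CCAAT box stood in 56.2% of the replication promoters and 37.4% of all. The cell cycle homology region (TTTGAA or TTCGAA), an element known from genes of G2 and mitosis, stood in 15.6% of the replication promoters and 19.2% of all, while 79.4% of 34 promoters of mitosis genes held it and 5.88% of those held an E2F site. The full palindromic estrogen response element was found in 0 of the 32 replication promoters and in 0.07% of all. All motifs were searched on both strands, and none of the 4 contains another. Genes with an E2F site had a median difference of -0.16 (12 genes) and those without one of -0.13 (16 genes), a gap that was not tested. A match of letters is a description of the window and not of binding.

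In G1/S control, all 4 genes were lower, against 48.8% of all measured genes, and 1 passed 1.2-fold, against 10.4%. Cyclin E2 (Ccne2), an activating subunit of Cdk2, had a log2 signal of 7.84 with Ad-DsRed and 7.53 with Ad-caERα, 1.25-fold lower. Its paralogue cyclin E1 (Ccne1) was almost level, at 8.32 and 8.29. The kinase gene Cdk2 was at 9.19 and 9.08, and E2f1, a transcriptional activator of S phase genes, at 9.10 and 8.96. These last differences, -0.11 and -0.14, were about the size of the spread among a gene's own probe sets.

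The 11 licensing genes had a median difference of -0.16, with 10 below 0, against 48.8% of all measured genes. Orc1, the subunit of the origin recognition complex whose level follows the cell cycle, was at 5.98 with Ad-DsRed and 5.64 with Ad-caERα, 1.26-fold lower and within 1 log2 unit of the floor, where this kind of signal is compressed. With a loess correction for mean signal its difference was -0.263, just short of 1.2-fold. Orc6 went the other way by little, at 8.81 and 8.85. The other subunits, Orc2, Orc3, Orc4 and Orc5, which do not belong to the 34, differed by -0.09, 0.04, -0.05 and -0.13, so Orc1 had the lowest difference of the 6 subunits.

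The loading factor Cdc6 was at 7.00 with Ad-DsRed and 6.77 with Ad-caERα, a difference of -0.23. Its partner Cdt1 was at 8.35 and 8.22, a difference of -0.13. Geminin (Gmnn), the protein that holds Cdt1 inactive after licensing, was at 5.52 and 5.34, a difference of -0.19, nearer still to the floor, and of -0.085 with the loess correction. The loaders and their inhibitor were thus all below 0, against 48.8% of all measured genes. None of them was lower by 1.2-fold, against 10.4%. The difference of Cdt1, and that of Gmnn with loess, did not exceed the SD of 0.13 among a gene's own probe sets.

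All 6 subunits of the MCM ring were lower in Ad-caERα, between 1.02-fold and 1.26-fold, against 48.8% of all measured genes below 0. Mcm3 was the lowest, at 8.15 with Ad-DsRed and 7.82 with Ad-caERα, and Mcm7 the nearest to level, at 9.20 and 9.17. The others lay close together. Mcm2 was at 9.48 and 9.36, Mcm4 at 9.08 and 8.92, Mcm5 at 8.66 and 8.52, and Mcm6 at 8.96 and 8.78. Apart from Mcm3 and Mcm7, the differences ran only from -0.18 to -0.12, a narrower range than the SD of 0.13 among a gene's own probe sets.

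Genes of helicase activation went in opposite directions. Cdc45, which joins the MCM ring together with GINS, was at 7.94 with Ad-DsRed and 7.65 with Ad-caERα, 1.23-fold lower. The GINS subunit gene Gins1 was at 7.32 and 6.99, 1.26-fold lower. Gins2, which encodes another subunit of the same tetramer, was at 7.65 and 7.90, 1.19-fold higher and the highest difference of the 34. The remaining subunits, Gins3 and Gins4, differed by -0.19 and -0.03. Mcm10, a factor needed for the helicase to start, was level at 7.22 and 7.20.

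**Figure D2:**
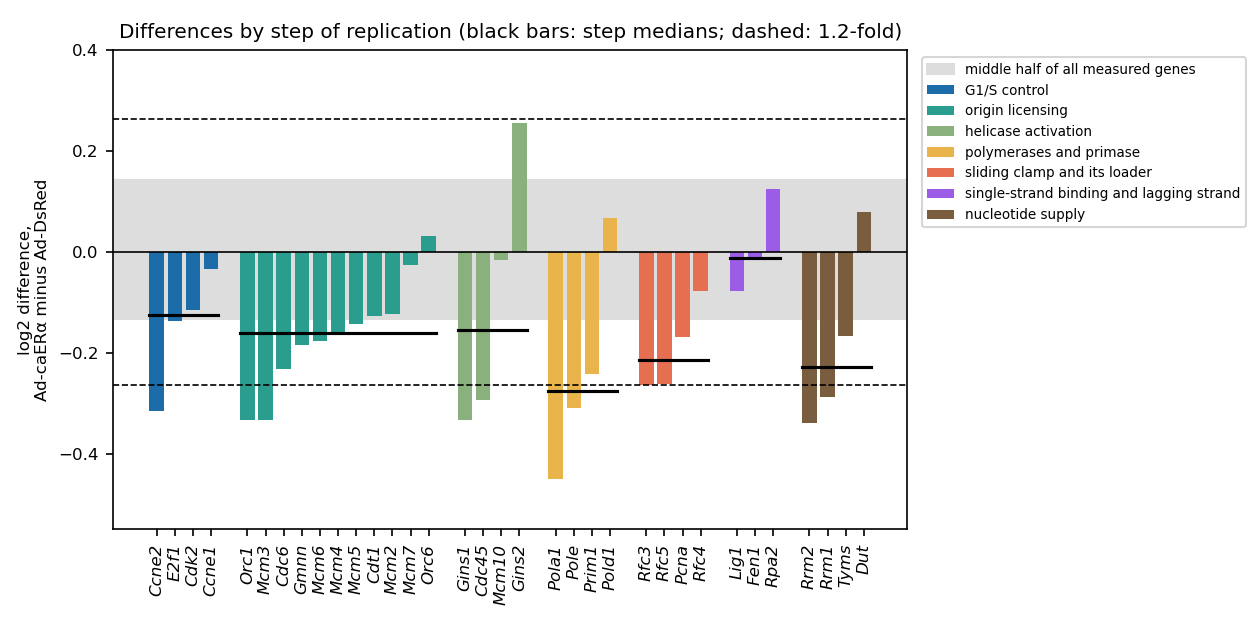
Log2 difference (Ad-caERα minus Ad-DsRed, 1 array each) of the 34 genes as bars by step, with the step median in black, 1.2-fold dashed and the range between the 25th and 75th percentiles of all measured genes in grey. On these uncorrected values, polymerase and primase genes have the lowest step median, -0.28, and the single-strand binding and lagging strand genes the highest, -0.012.

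The polymerase and primase genes had the lowest median of the 7 steps, -0.28, over only 4 genes. With the gene span correction given further on, the clamp and loader genes were level with them, at -0.283 against -0.279. Pola1, the catalytic subunit of polymerase α, which makes the primers' DNA, was at 8.34 with Ad-DsRed and 7.89 with Ad-caERα. That was 1.37-fold lower, the lowest difference of the 34, and 2.30% of all measured genes lay as low. After the span correction it was -0.36, and Rrm2 was the lowest at -0.42. Prim1, the catalytic primase subunit bound to it, was at 8.66 and 8.42, a difference of -0.24. Pole, the catalytic subunit of polymerase ε, which copies the leading strand, was at 8.48 and 8.17, 1.24-fold lower. Pold1, the catalytic subunit of polymerase δ, which copies the lagging strand, was not lower, at 7.88 and 7.94.

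The accessory subunits of these enzymes, taken from the wider lists, did not all follow their catalytic partners. Polymerase δ stood apart: Pold2 differed by 0.38 and Pold4 by 0.66, while Pold3 differed by -0.05, so 3 of its 4 subunits were above 0. Of all 13554 measured genes, 6804 were above 0. In polymerase ε, Pole2, Pole3 and Pole4 differed by -0.18, 0.06 and -0.07. In polymerase α-primase, Pola2 and Prim2 differed by -0.14 and 0.05. Subunits of 1 enzyme were up to 0.71 apart on the log2 scale, the distance within polymerase δ.

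**Figure D3:**
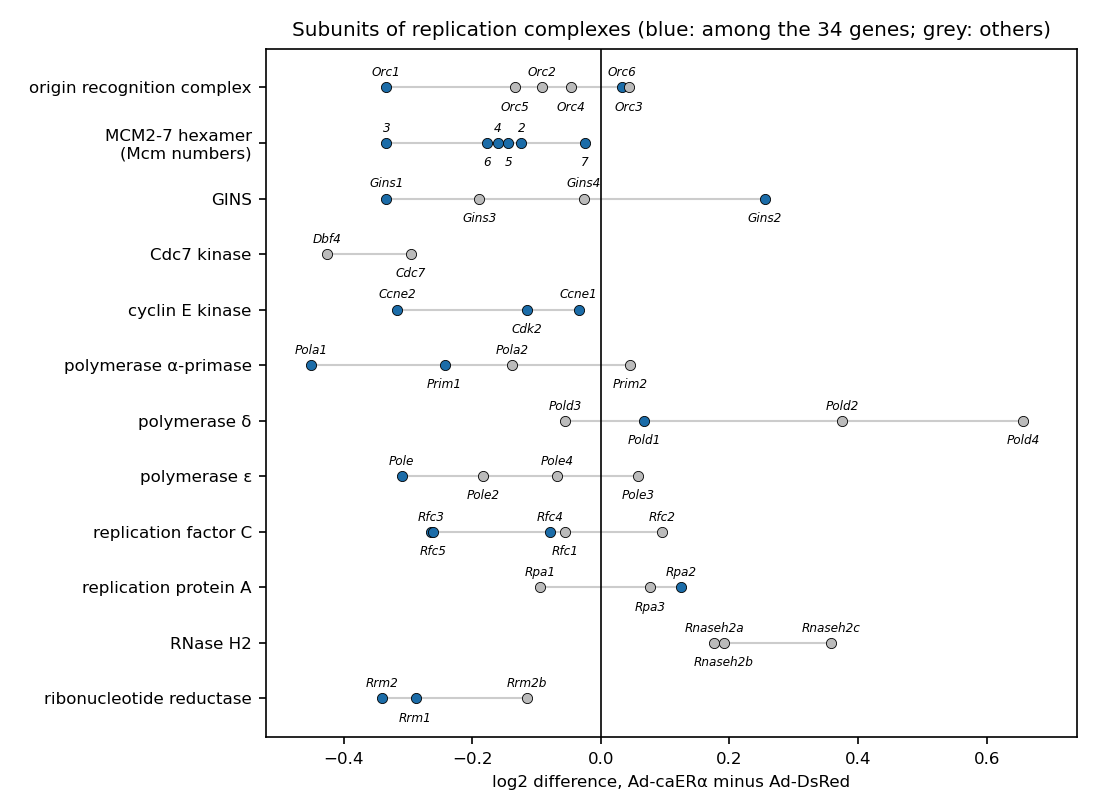
Log2 difference (Ad-caERα minus Ad-DsRed, 1 array each) of every subunit of 12 replication complexes, with the 34 genes in blue and other subunits in grey. All 6 MCM subunits lie below 0, all 3 RNase H2 subunits lie above 0, and the subunits of GINS and of polymerase δ are spread the most, over 0.59 and 0.71.

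The sliding clamp and its loader were lower in all 4 genes, against 48.8% of all measured genes. PCNA, the ring that holds polymerases on DNA, had a log2 signal of 11.53 with Ad-DsRed and 11.36 with Ad-caERα, a difference of -0.17. Its other probe set gave the same difference, but the annotation lists the same transcripts for both and RefSeq lists 2 Pcna pseudogenes, so they are not separate readings and copies cannot be told apart. The loader subunit Rfc3 was at 8.16 and 7.89 and Rfc5 at 9.84 and 9.58. Their differences were nearly equal, -0.264 and -0.261, on either side of the 1.2-fold line. Rfc4 was at 9.59 and 9.51, a difference of -0.08, and the other loader subunits, Rfc1 and Rfc2, differed by -0.06 and 0.10.

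Single-strand binding and lagging strand genes were close to level. Fen1, the nuclease that trims flaps between Okazaki fragments, was at 7.46 with Ad-DsRed and 7.45 with Ad-caERα. Lig1, the ligase that seals those fragments, was at 8.18 and 8.10. Rpa2, a subunit of the protein that coats single-stranded DNA, was at 8.06 and 8.18, a difference of 0.12. None of the 3 differed by more than the SD of 0.13 among a gene's own probe sets. RNase H2, which removes RNA from DNA, was above 0 in all 3 subunits: Rnaseh2a by 0.18, Rnaseh2b by 0.19 and Rnaseh2c by 0.36. The same held for 6804 of the 13554 measured genes.

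In nucleotide supply the median difference was -0.23. Both ribonucleotide reductase genes of the 34 were lower by 1.2-fold, against 10.4% of all measured genes. This enzyme turns ribonucleotides into the precursors of DNA. Its large subunit gene Rrm1 was at 10.75 with Ad-DsRed and 10.46 with Ad-caERα, 1.22-fold lower, and its small subunit gene Rrm2 was at 10.70 and 10.36, 1.27-fold lower. The alternative small subunit Rrm2b, which is induced by p53, differed by -0.11.

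Thymidylate synthase (Tyms), which makes dTMP, was at 8.74 with Ad-DsRed and 8.57 with Ad-caERα, a difference of -0.17. RefSeq lists 1 transcribed pseudogene of Tyms, and whether the probe set also reads it was not tested. Dut, the dUTPase that keeps uracil out of DNA, was slightly higher, at 7.917 and 7.996.

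Among 59 other measured genes of the replication pathway, 44 were below 0, against 48.8% of all measured genes. Their median difference was -0.09, nearer to the median of all measured genes than that of the 34. By the 1.2-fold size 7 were lower, 11.9% against the 10.4% of all measured genes and so near that background. By the same size 3 were higher (Pold4, Pold2 and Rnaseh2c), 5.08% against 11.1%. Of 19 other licensing and firing genes, 18 were below 0 (median -0.13) and 4 were lower by 1.2-fold, 21.1% against 10.4%. Ticrr, an activator of origin firing, was at 7.94 with Ad-DsRed and 7.39 with Ad-caERα. Dbf4, the activating subunit of the Cdc7 kinase that fires origins, was at 8.21 and 7.79. Cdc7 itself differed by -0.30 and is dim, at 6.16 and 5.87, near the floor of 5.11. Fbxo5, which keeps the anaphase-promoting complex inactive in S phase, differed by -0.34. At the top of that list were Orc3 (0.04), Recql4 (-0.01) and Gins4 (-0.03).

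Of 27 other polymerase, clamp loader and fork genes, 18 were below 0, against 48.8% of all measured genes, with a median of -0.07. The lowest were Dscc1, a subunit of an alternative clamp loader (-0.39), the nuclease-helicase Dna2 (-0.30) and the checkpoint mediator Clspn (-0.27). Dscc1 is dim, at 6.08 with Ad-DsRed and 5.70 with Ad-caERα, near the floor of 5.11. Of 13 other nucleotide supply genes 8 were below 0, against the same 48.8%, with a median of -0.05. Of these, 0 passed 1.2-fold, against 10.4% of all measured genes lower and 11.1% higher. The lowest were Shmt1 (-0.21), the thymidine kinase Tk1 (-0.19) and the dNTP hydrolase Samhd1 (-0.13), and the highest were the dCTP pyrophosphatase Dctpp1 (0.23), Shmt2 (0.10) and Nme1 (0.09).

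Larger differences stood in a list of 14 further G1/S genes, mostly activators, with a median of -0.26. By the 1.2-fold size 7 were lower, 50% against 10.4% of all measured genes. E2f7 was at 9.30 with Ad-DsRed and 8.69 with Ad-caERα, and E2f8 at 9.60 and 9.06; both, the lowest of the list, encode repressors that are themselves made in S phase. The activator E2f2 was at 9.15 and 8.64. The activators E2f3 and, among the 34, E2f1 differed by -0.12 and -0.14. A second, dimmer probe set of E2f3 differed by 0.055, so the direction of E2f3 is not settled. Of the D cyclins and their kinases, which act earlier in G1, Ccnd3 differed by 0.00, Cdk4 by -0.01, Ccnd2 by -0.02, Ccnd1 by -0.22 and Cdk6 by -0.30.

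The median of the mitosis genes lay below that of the replication genes. All 36 measured genes of that list were below 0, against 48.8% of all measured genes, with a median of -0.35. By the 1.2-fold size 25 were lower (69.4%), compared with 10 of the 34 (29.4%) and 10.4% of all measured genes. The lists were not tested against each other, since 1 array per group gives no error for either median. Of the 34, Pola1 alone lay below the mitosis median on the values as deposited, whereas 5 did so after the correction for gene span described next (mitosis median -0.34), namely Rrm2, Gins1, Mcm3, Pola1 and Ccne2.

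**Figure D4:**
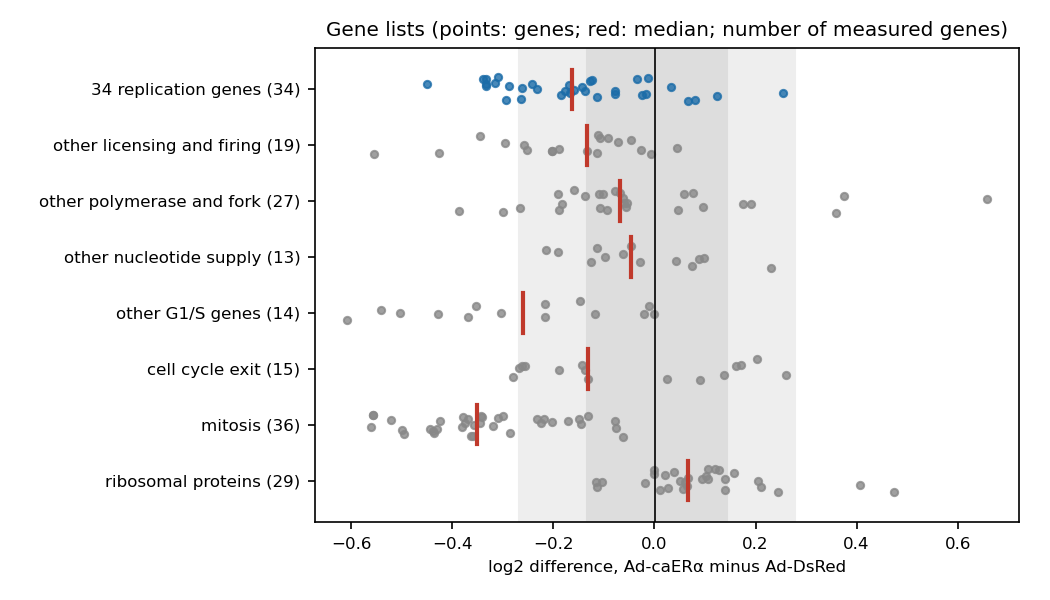
Log2 difference (Ad-caERα minus Ad-DsRed, 1 array each) of the genes of each list (points) with the list median in red; shading spans the 25th to 75th and the 10th to 90th percentiles of all measured genes. The 34 replication genes centre on -0.16, the mitosis genes on -0.35 and the ribosomal protein genes on 0.066.

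Across the whole array, the difference varied with the genomic span of a gene, from start to end with introns. Of 12886 measured protein-coding genes in RefSeq, put into 10 equal classes by span, the class of 4096 to 7416 bases had a median difference of 0.08 and the class with the longest spans one of -0.09. The median span of the 34 genes was 14065 bases, and 26 of them fell in the 5 shortest of the 10 span classes, where the medians of all genes were above 0. After the median of each gene's own span class was subtracted, an alternative chosen after seeing the data, the median of the 34 was -0.20, with 30 below 0 (50% of all genes so treated) and 13 lower by 1.2-fold (10.6%).

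Within the 34, the 17 genes with the longer spans had a median of -0.24 and the 17 with the shorter spans one of -0.11. Spearman's rho between span and difference was -0.40 over the 34 genes, which are not independent replicates and share the same 2 arrays. Pola1 has the longest span of the 34, and Gins2 one of the shorter ones, but Rrm2, with a span under 6 kb at 5893 bases, was among the lowest. Between mean signal and difference, rho was 0.03. Transcript length and RNA integrity were not analysed here.

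**Figure D5:**
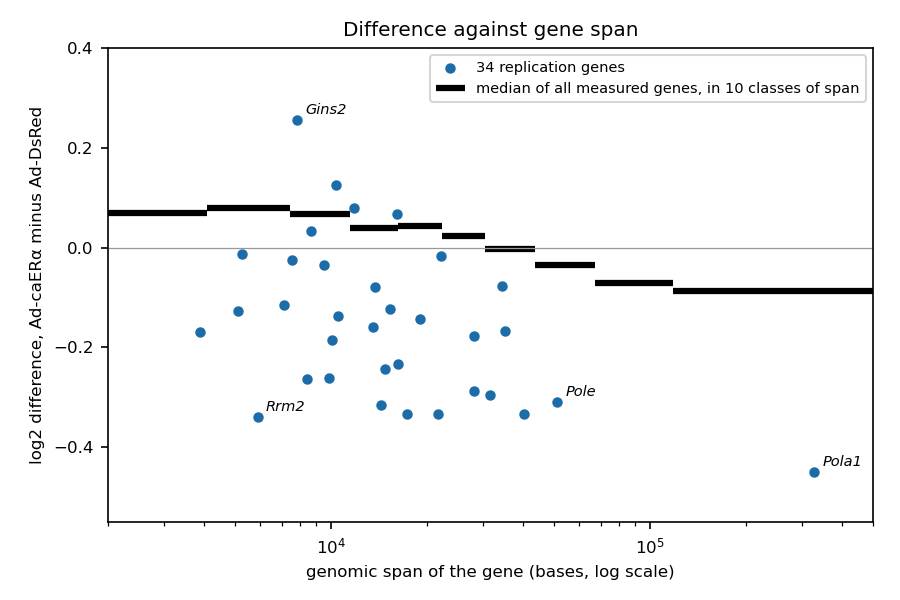
Log2 difference (Ad-caERα minus Ad-DsRed, 1 array each) against genomic span in bases on a log axis, for the 34 genes (points) and as the median of all measured protein-coding genes in each of 10 classes of span (black bars; the outermost bars are clipped at the axis limits). The points lie below the bar of their class in 30 of 34 genes.

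Markers of the cells in the dish were compared in the same way. All 15 myotube markers were measured, with 13 below 0, against 48.8% of all measured genes, and a median of -0.11. By the 1.2-fold size 3 were lower, Mymx (-0.79), Ttn (-0.42) and Mef2c (-0.39), 20% against 10.4% of all measured genes. By that size 0 were higher, against 11.1%. The summed linear signal of the myotube markers, over measured genes here and below, was 40500 with Ad-DsRed and 38839 with Ad-caERα. Such sums add signals of different probe sets and weigh the brightest genes most, so they do not measure the share of a cell type. Of 15 myoblast and satellite cell markers 14 were measured, 7 below 0 and 7 above, with a median of -0.04 and sums of 18199 and 16818. Vcam1 was the lowest of them (-0.94), with Met (-0.57) and Cdh15 (-0.27) also lower by 1.2-fold. Myf5 was the highest (0.71), with Id2 (0.42) and Cd34 (0.28) also higher by that size. In all 3 were lower and 3 higher by 1.2-fold, 21.4% each, against 10.4% and 11.1% of all measured genes. Pax7 differed by -0.14 and Myod1 by 0.0036, and Pax3 was below the floor on both arrays. Fibroblast and smooth muscle markers had 11 of 12 measured, a median of -0.0065 and sums of 21665 and 21746. Leukocyte markers had 3 of 11 measured, with sums of 215 and 250, and Ptprc, Csf1r and Adgre1 were below the floor. Endothelial markers had 5 of 10 measured (sums of 328 and 312) and adipocyte markers 3 of 6 (397 and 367). The part of any change in cell makeup in the lower replication signals was not tested.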

How the data were processed

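RNA of 2 differentiated C2C12 cultures, 1 per vector, was measured on Affymetrix arrays. The deposited log2 signals per probe set came from Affymetrix Expression Console with RMA, per the submitters' processing notes. Versions were not given in the sources used here, nor was any filter. RMA corrects background, quantile-normalizes arrays and compresses differences between weak signals. Column medians were 6.05 and 6.02, with no centring of genes. Of 35556 probe sets the platform annotation names 1 gene for 21789, several for 1621 and none for 12146; gene identifiers of 21698 matched RefSeq (GRCm38.p6), which changed 0 symbols. Groups came from sample titles; a further tag of the Ad-caERα sample writes sigma where its title has α. Differences were computed as Ad-caERα minus Ad-DsRed. No test was made, and the number of arrays limits the precision; labels give no further samples per group. The median of the 34 is set beside that of all measured genes. Counts over the 34, over the other lists and within single steps are set beside the share of all measured genes. Named genes are all 34, Esr1, and up to 3 lowest and highest genes of each replication list, plus the further subunits of 12 complexes, subunits of which were grouped after values were seen, the E2F and cyclin D genes, and a few markers. Members and lists were chosen with earlier results of these data known. Loess used a span of 0.3. The code was checked on simulated data. Python 3.11.15, numpy 2.4.6, pandas 2.3.3, scipy 1.17.1, statsmodels 0.14.6 and matplotlib 3.10.9 were used.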

Additional observations from a re-analysis of the deposited data

How the results depend on the processing

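No paired analysis was possible because there is 1 array for each vector, and leaving out a replicate was likewise impossible. The median of the 34 genes stayed between -0.20 and -0.15 under other floors, centring, loess on mean signal, averaging of probe sets, the mean over genes and the subtraction of span class medians. Floors, probe set rules and centring could hardly move it, since 33 of the 34 genes have 1 probe set and 32 lay above either higher floor. The number lower by 1.2-fold was 9 to 13 in these recalculations, against 7.94% to 11% of all genes so treated. With the size set at 1.1-fold and 1.3-fold it was 19 and 1, against 24.3% and 4.34% of all measured genes. By 1.1-fold 1 gene, Gins2, was higher, against 25.8% of all measured genes. None of 302 recalculated single-gene differences moved by more than 0.13, and Orc6 alone changed sign, to -0.00098 with loess and -0.035 with span subtraction. Only loess and span subtraction could move single genes to any extent, so most of the 302 could hardly change. The median of the cell cycle exit genes was 0.057 with either higher floor in place of -0.13, where 3 dim genes drop out, and that of the ribosomal protein genes was -0.0042 with span subtraction. On the forward strand alone, E2F sites stood in the promoters of 6 genes in place of 12 and CCAAT boxes in those of 9 in place of 17. Culture-to-culture spread is unknown.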

Other observations

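Genes listed here under cell cycle exit went both ways. Of 15 measured genes of cell cycle exit, 8 were below 0, against 48.8% of all measured genes, and 7 above, with a median of -0.13. That median has no settled direction: it was 0.057 with either higher floor and -0.035 with loess, and the mean was -0.041. The cyclin-dependent kinase inhibitor gene Cdkn1b had a log2 signal of 9.85 with Ad-DsRed and 10.11 with Ad-caERα, the highest difference of the list (0.26). Of its 2 probe sets this is the one with the higher mean, and the other is not given here. The inhibitor genes Cdkn2c and Cdkn2d followed the same direction, at 0.16 and 0.17, and so did Rbl2, which encodes the pocket protein p130 of resting cells, at 0.20. After the span correction Cdkn1b, Cdkn2c, Cdkn2d and Rbl2 differed by 0.18, 0.08, 0.10 and 0.24. The inhibitor genes Cdkn1c, Cdkn2a and Cdkn2b went the other way, at -0.26, -0.26 and -0.13. They are dim, with signals from 5.36 to 6.03, and are the genes that drop out with either higher floor. Rb1 and Rbl1, the other pocket protein genes, were below 0, at -0.14 and -0.27, and Lin54, a subunit of the DREAM complex that represses cell cycle genes, was the lowest at -0.28. Cdkn1a, which encodes p21, is read only by a probe set that also names another gene, so it was not counted; that probe set was level, at 12.42 and 12.43.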
